A study of Homo sapiens with 7 samples.

Results

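The late recovery step after ultraviolet C (UVC) damage was examined by comparing nascent transcription at 24 h with that at 12 h. The members were the 2 libraries titled for these times, of 7 libraries in the series. All 7 came from MRC5VA, an immortalised human fibroblast line grown in standard medium. The 12 h and 24 h cells had both received UVC at 15 J per square metre and differed in the time allowed afterwards. An untreated library and UVC libraries at 2, 5, 8 and 10 h served only for placing these 2 on a scale. The assay was GRO-seq (global run-on sequencing), in which polymerases already engaged on DNA extend their transcripts in isolated nuclei with a brominated nucleotide, and the labelled RNA is captured and sequenced. The labels name no clone and no separate cultures, and each time had 1 library, so no test between times was possible.

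UVC joins neighbouring pyrimidines in DNA into bulky lesions that block elongating RNA polymerase II. Long genes are hit more often than short ones, so transcription far from the start is lost most, and it returns as lesions are removed by transcription-coupled repair. Polymerases also collect just downstream of many starts, where they pause before entering the gene body, and many human promoters fire in both directions. A profile averaged over genes shows these regions as a peak at the start, a shoulder upstream and a gene body that slopes away.

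Each file held 1 average gene profile, a signal value for each of 122001 bases from -2000 to 120000 bp around position 0. Position 0 was taken as the transcription start, because every library had a peak just after it. Whole reads were recovered from the values, and amounted to 25795781 at 12 h and 20603391 at 24 h (12003109 to 19539255 in the other libraries), where a read that falls in several averaged genes is counted in each. Between 25597 and 128242 reads covered each base at 24 h, and between 32712 and 107697 at 12 h. The 95% intervals given below cover counting error only, and neither the spread between cultures nor that between genes is in them. Because a profile is a mean over genes, fewer active genes and less signal per gene cannot be told apart. The profiles hold no single gene, so no marker gene was examined against the cell line's label.

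Signal at 24 h was higher than at 12 h at the start of the gene and in the last part of the profile, and lower in the stretch between them. The mean signal in the first kilobase was 5.91 at 12 h and 8.14 at 24 h, a ratio of 1.38. From 1 to 10 kb it was 5.04 at 12 h and 4.36 at 24 h, a ratio of 0.865, and from 10 to 30 kb it was 4.20 and 3.72, a ratio of 0.886. Signal was nearly level from 30 to 60 kb (3.44 and 3.52, a ratio of 1.02). It was higher at 24 h from 60 to 100 kb (2.47 and 2.81, a ratio of 1.14) and from 100 to 120 kb (2.10 and 2.46, a ratio of 1.17).

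Each of these differences exceeded counting error. The log2 ratio of 24 h to 12 h was 0.46 in the first kilobase (95% counting interval 0.455 to 0.467), -0.21 from 1 to 10 kb (-0.212 to -0.207) and -0.17 from 10 to 30 kb (-0.176 to -0.172). It was 0.18 from 60 to 100 kb (0.183 to 0.186) and 0.23 from 100 to 120 kb (0.228 to 0.233). The factor that scaled each library is not given in the sources used here. The values from 0 to 100 kb averaged 3.37 at 12 h and 3.40 at 24 h, so dividing each profile by its own sum over that range moved every log2 ratio by only -0.0096. The scaled ratios were 1.37, 0.859, 0.880, 1.02, 1.13 and 1.17 for the 6 windows in order of distance. The sizes of all windows, and the directions from 30 to 100 kb, depended on the background assumed. The lowest kilobase of each profile lay at its far end in both libraries. With that kilobase subtracted, the log2 ratio became -0.32 from 30 to 60 kb and -0.083 from 60 to 100 kb. From 100 to 120 kb almost nothing was left of the gain (0.011). The losses grew to -0.61 from 1 to 10 kb and -0.69 from 10 to 30 kb. With the lowest 50-bp bin subtracted instead, a setting chosen after seeing the data, the values were 0.055 and 0.70 beyond 30 kb, and -0.37 and -0.36 before it. Dividing by the kilobase farthest upstream also turned the 30 to 60 kb value, to -0.069, and left the 60 to 100 kb value at 0.084.

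In bins of 50 bp the start of the gene changed shape as well as height. At 12 h the bin from 150 to 200 bp had a signal of 6.07, the lowest bin after it (300 to 350 bp) one of 5.47, and signal then climbed to 6.42 at 900 to 950 bp. The 12 h library was the only one of the 7 whose highest bin between -500 and 1000 bp was not at the start peak. At 24 h the bin from 150 to 200 bp reached 9.78 (95% counting interval 0.052 to either side), the highest value in any library, and signal fell from there to 7.22 at 950 to 1000 bp. The same peak measured 9.35 in untreated cells, and 7.65, 7.27, 8.82 and 7.35 at 2, 5, 8 and 10 h. Its height was therefore lowest at 12 h and highest at 24 h, with no order in time between.

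The ratio of 24 h to 12 h had its maximum at that peak. It was 1.61 in the bin from 150 to 200 bp (95% counting interval 1.599 to 1.625; 1.601 after scaling to the own sum), and declined without a break to 1.13 at 950 to 1000 bp. A second maximum of 1.59 (1.57 to 1.61) lay upstream, from -200 to -150 bp. In that bin signal was 3.44 at 12 h, 5.47 at 24 h and 5.41 in untreated cells. All 20 bins of the first kilobase lay above 1 by more than counting error, on both scales.

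**Figure D1:**
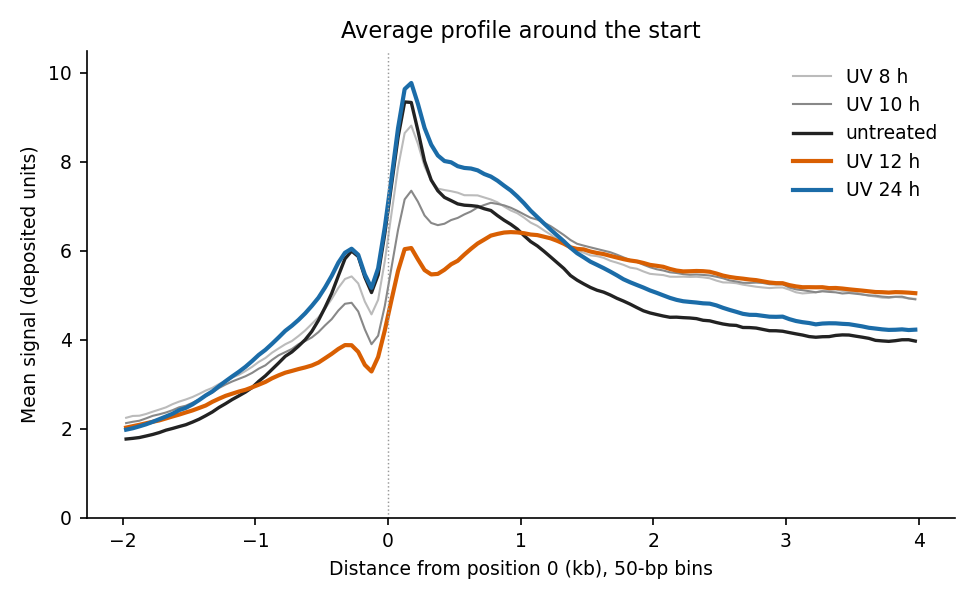
Mean signal in deposited units (vertical axis) in 50-bp bins from -2 to 4 kb around position 0 (horizontal axis), one line per library for untreated cells and for 8, 10, 12 and 24 h after UVC. The 12 h line is lowest at the start peak (6.07) and the 24 h line highest (9.78), and the order of these lines is exchanged beyond 1.35 kb.

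Just upstream of position 0 both profiles had a hump followed by a trough, and the signal in each was higher at 24 h. The hump lay about 300 bp upstream, with a highest bin of 3.88 at 12 h (-350 to -300 bp) and 6.05 at 24 h (-300 to -250 bp), against 5.998 in untreated cells. The trough lay at -150 to -100 bp, with 3.29 at 12 h and 5.17 at 24 h. The ratio of peak to hump was 1.56 in untreated cells as well as at 12 h, and 1.62 at 24 h. At 2 h it had been 2.51. Whether the hump comes from the opposite strand was not tested, since the strand of the averaged reads is not given in the sources used here.

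The upstream gain faded with distance from the start. From -1 to 0 kb the signal was 3.49 at 12 h and 4.99 at 24 h, a ratio of 1.43, and from -2 to -1 kb it was 2.44 and 2.61, a ratio of 1.07. At the far edge, from -2000 to -1950 bp, the 24 h profile was slightly the lower one, with 1.98 against 2.03 and a ratio of 0.977 (95% counting interval 0.962 to 0.992). Of the 40 upstream bins, 34 were above 1 and 3 below 1 by more than counting error. The remaining 3 could not be told from 1 at this depth.

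The gain at the start ended at 1.35 kb, the earliest 50-bp bin from which the 24 h profile stayed under the 12 h profile for 5 bins in a row. Counting error placed this near crossing between 1.3 and 1.4 kb, and it was the same after scaling to the own sum. The ratio fell fast on both sides of it, from 1.11 at 1000 to 1050 bp to 0.893 at 2000 to 2050 bp. Its lowest value among the 50-bp bins was 0.833 (0.825 to 0.842) at 3800 to 3850 bp, where signal was 5.07 at 12 h, 4.23 at 24 h and 3.98 in untreated cells.

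A bin was counted as past the fold when its ratio was at least 1.1, or at most the inverse of 1.1. From -2 to 4 kb, 47 of 120 bins were higher at 24 h by that fold (39.2%) and 43 were lower (35.8%). The higher bins comprised 26 upstream, 20 in the first kilobase and 1 just beyond it, and the lower ones all lay between 1 and 4 kb. From 4 to 120 kb, 55 of 116 bins of 1 kb were higher by that fold (47.4%) and 20 were lower (17.2%). The 20 lower bins all lay between 4 and 30 kb, and the 55 higher ones comprised 35 between 60 and 100 kb and 20 beyond 100 kb. No 1-kb bin reached a fold of 1.2. With the lowest kilobase of each profile subtracted the balance beyond 4 kb turned, with 6 bins higher and 70 lower by the fold of 1.1.

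**Figure D2:**
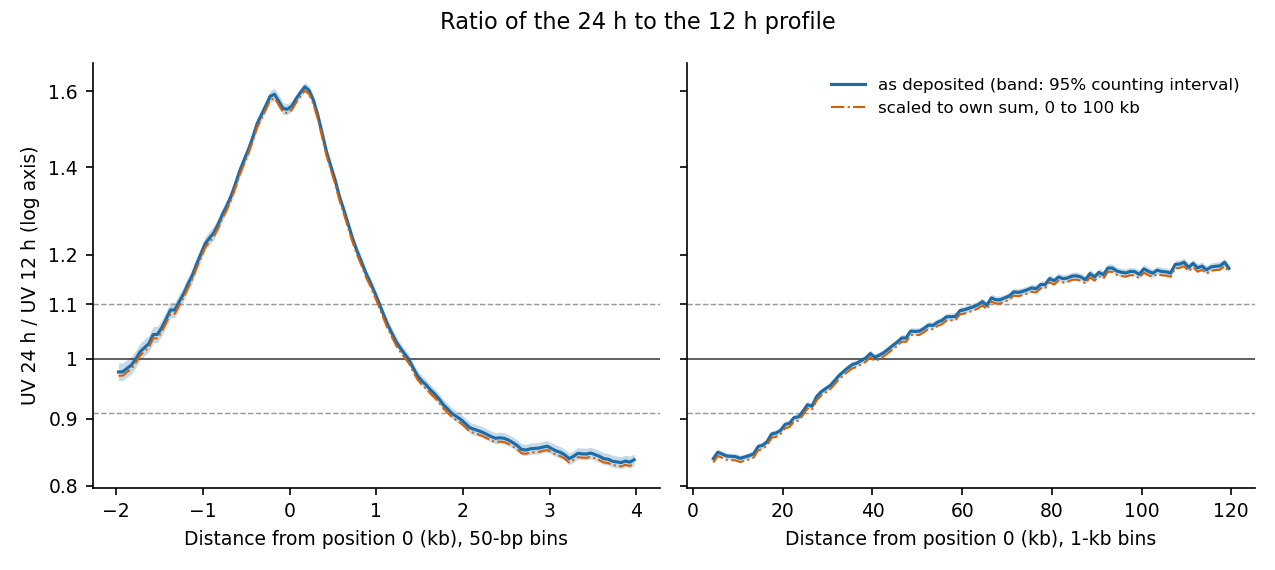
Ratio of the 24 h to the 12 h signal (vertical log axis) against distance from position 0, in 50-bp bins (left) and 1-kb bins (right), as deposited with its 95% counting interval and after scaling each profile to its own sum. Dashed lines mark the fold of 1.1. The ratio peaks at 1.61, falls through 1 at 1.35 kb and reaches 0.839 at 3.2 kb. It stays near 0.84 to about 14 kb and passes 1 again near 38 kb.

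The loss in the gene body had a flat floor and then a long slope. In 1-kb bins the ratio was 0.839 (0.835 to 0.843) at 4 to 5 kb, 0.840 at 10 to 11 kb and 0.846 at 13 to 14 kb. It then climbed to 0.902 at 22 to 23 kb and 0.949 at 29 to 30 kb. All 26 bins between 4 and 30 kb were lower at 24 h by more than counting error. In the bin from 4 to 5 kb the signal was 4.96 at 12 h and 4.16 at 24 h, against 3.94 in untreated cells.

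The 24 h profile rose back over the 12 h profile at 38 kb, the far crossing, defined as the earliest 1-kb bin after the lowest ratio from which 5 bins in a row lay above 1. Counting error placed it between 37 and 39 kb. Since the ratio passes 1 at a shallow slope here, the small change of scale to the own sum moved the crossing to 42 kb (38 to 43). Against the 10 h library in place of the 12 h library it lay at 30 kb. With the lowest kilobase of each profile subtracted no far crossing was found.

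Beyond the far crossing the ratio went on rising and then levelled off. In blocks of 10 kb its log2 value was 0.036 at 40 to 50 kb, 0.094 at 50 to 60 kb, 0.14 at 60 to 70 kb and 0.18 at 70 to 80 kb. It was 0.21 at 80 to 90 kb, 0.22 at 90 to 100 kb, and 0.23 both at 100 to 110 kb and at 110 to 120 kb. The gain from one block to the next thus shrank from 0.061 (from the block at 30 to 40 kb to that at 40 to 50 kb) to 0.0065 (from the block at 90 to 100 kb to that at 100 to 110 kb). The counting standard error of a block was at most 0.0018.

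The highest single bin from 60 to 100 kb had a ratio of 1.17 (1.16 to 1.18) at 92 to 93 kb, with a signal of 2.24 at 12 h and 2.63 at 24 h. Beyond 100 kb the highest was 1.18 (1.18 to 1.19) at 109 to 110 kb, with 2.09 and 2.47. Every one of the 60 bins beyond 60 kb was higher at 24 h by more than counting error. Neighbouring 1-kb bins had ratios that scattered by 0.0056 on the log2 scale, which is 1.19 times the median counting standard error of 0.0047.

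Counted as amounts of signal as deposited, the losses and the gains within 100 kb nearly cancelled. This balance rests on the scale and the background, since the net difference was -6.09% with each profile divided by its farthest upstream kilobase, -24.7% with the lowest kilobase subtracted and 0.320% with the lowest 50-bp bin subtracted. These 3 settings were applied to the sum after seeing the data. The figures that follow are percentages of the deposited 12 h signal from 0 to 100 kb. From 0 to the near crossing, over 1.35 kb, 24 h exceeded 12 h by 0.694%. Between the crossings, over 36.65 kb, the difference was -4.89%, of which -1.85% lay before 10 kb and -3.04% beyond it. From the far crossing to 100 kb, over 62 kb, 24 h exceeded 12 h by 4.86%, and the net difference to 100 kb was 0.667%. The gene body thus held the bulk of the difference in both directions, although the largest ratios lay at the start. The excess at 24 h was a further 2.15% from 100 to 120 kb, and 0.497% upstream of position 0.

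After scaling each profile to its own sum the net change to 100 kb is 0 by construction. The amounts were then 0.674% at the start, -5.18% between the crossings and 4.50% from the far crossing to 100 kb. As deposited, the running sum from position 0 peaked at 1.35 kb, was below 0 at 5 kb, reached its lowest value of -4.20% at 38 kb and returned to 0 at 94 kb.

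**Figure D3:**
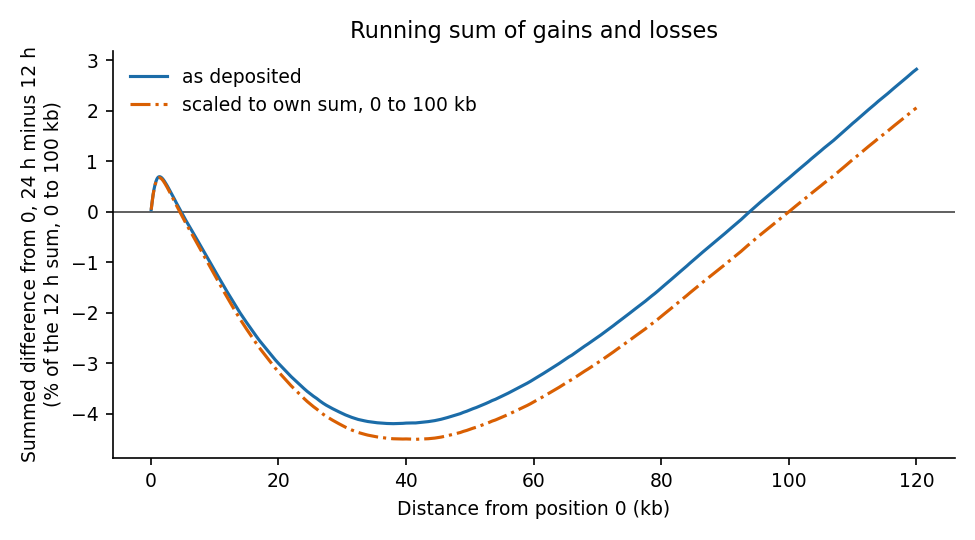
Running sum of the 24 h minus the 12 h signal from position 0 (vertical axis, in percent of the 12 h sum from 0 to 100 kb) against distance (horizontal axis), as deposited and after scaling to the own sum. As deposited, the line rises to 0.694% at 1.35 kb, sinks to -4.20% at 38 kb and ends above 0.

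Shares of signal are free of the factor that scaled each library. Of the signal from 0 to 100 kb, the first kilobase held 1.75% at 12 h (95% Wilson interval 1.747 to 1.758) and 2.40% at 24 h (2.390 to 2.404), against 2.23% in untreated cells. At 2, 5, 8 and 10 h it held 2.45%, 2.12%, 2.37% and 2.09%. By share 12 h was thus the lowest, but 2 h and not 24 h was the highest. The stretch from 1 to 30 kb held 38.3% at 12 h (38.32 to 38.36) and 33.5% at 24 h (33.45 to 33.49), against 32.3% in untreated cells. From 30 to 60 kb the shares were 30.6% at 12 h and 31.1% at 24 h, against 31.4% in untreated cells, and from 60 to 100 kb they were 29.3%, 33.0% and 34.1%.

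Ratios between windows of the same library showed the change of shape directly. The first kilobase had 1.17 times the mean signal of 1 to 10 kb at 12 h (95% counting interval 1.169 to 1.176) and 1.87 times at 24 h (1.861 to 1.873), against 1.83 times in untreated cells. The values at 2, 5, 8 and 10 h were 1.204, 1.28, 1.51 and 1.37, so 12 h was the lowest of all libraries and 24 h the highest. Against 60 to 100 kb, the first kilobase had 2.39 times the signal at 12 h and 2.90 times at 24 h. The value was 2.62 in untreated cells, and 3.63, 3.04, 3.31 and 2.89 at 2, 5, 8 and 10 h. On this measure 12 h was again the lowest, but 2 h was the highest. The stretch from 1 to 10 kb had 2.04 times the signal of 60 to 100 kb at 12 h and 1.55 times at 24 h, against 1.43 times in untreated cells. Here the values at 2, 5, 8 and 10 h were 3.02, 2.37, 2.19 and 2.11, and the 7 libraries followed the order of time, with untreated cells beyond 24 h. The mean from 10 to 30 kb over that from 30 to 60 kb followed the same order, from 1.54 at 2 h through 1.22 (12 h) and 1.06 (24 h) to 1.02 in untreated cells.

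**Figure D4:**
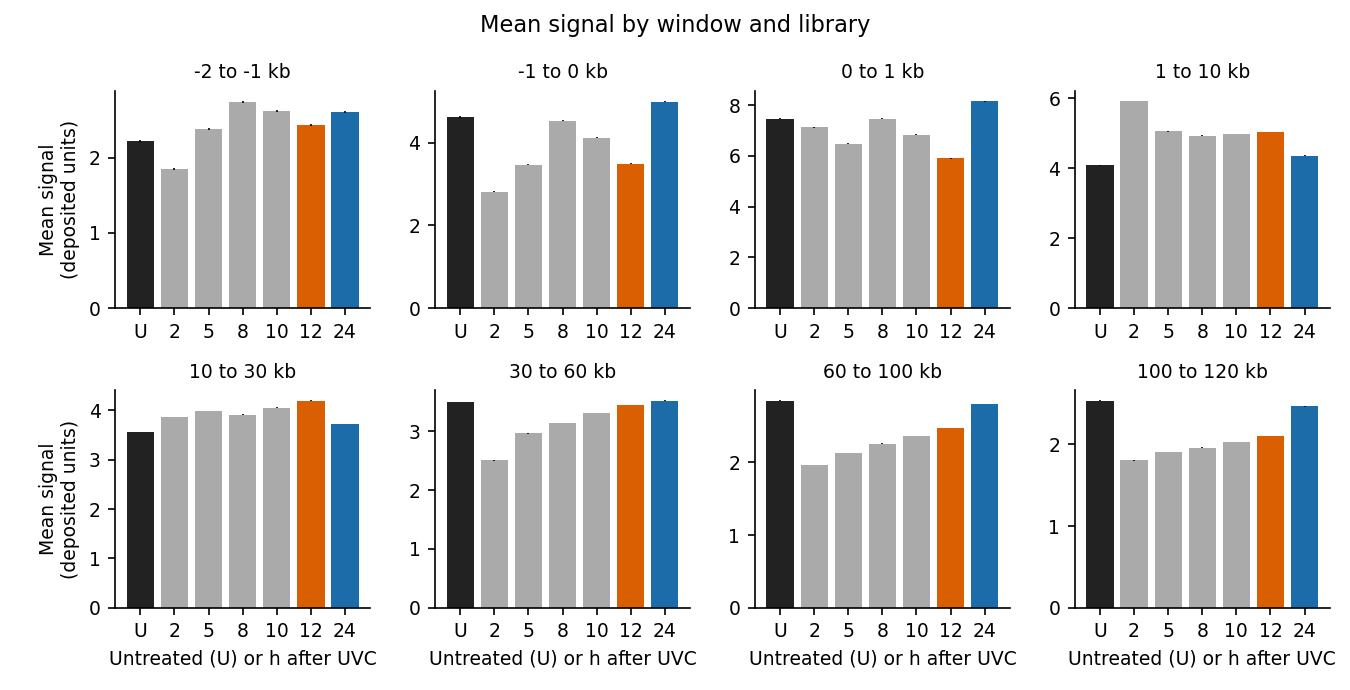
Mean signal in deposited units (vertical axes, starting at 0) in 8 windows for each library, untreated (U) and 2 to 24 h after UVC, with the 12 h library in orange, the 24 h library in blue and 95% counting intervals as error bars. In the first kilobase, in these deposited units, the bar at 12 h (5.91) is the lowest and that at 24 h (8.14) the highest. After scaling to the own mean from 0 to 100 kb (not drawn), 2 h (2.45) stood above 24 h (2.40). Beyond 60 kb the bars, in deposited units, rise with time after UVC. Scaled to the own mean, the tail from 100 to 120 kb was 0.619 at 2 h, 0.623 at 12 h and 0.725 at 24 h. From 60 to 100 kb the scaled values at these times were 0.673, 0.732 and 0.826.

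The level of untreated cells gives a common mark for both times. In the first kilobase the ratio to untreated was 0.793 at 12 h and 1.09 at 24 h. From 1 to 10 kb it was 1.23 at 12 h and 1.07 at 24 h, and from 10 to 30 kb 1.18 and 1.04. From 60 to 100 kb it was 0.867 at 12 h and 0.985 at 24 h, and beyond 100 kb 0.829 and 0.973. Both sets of ratios share the untreated library.

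Bin by bin, the 24 h signal lay between the 12 h and the untreated signal in 100 of the 116 bins from 4 to 120 kb, and in 107 after scaling to the own sum. All 26 bins between 4 and 30 kb and all 20 beyond 100 kb were among them on both scales. The start did not show this order. In all 20 bins of the first kilobase the 24 h signal was above the untreated one as well as above the 12 h one, on both scales. Of the 40 bins upstream, only 5 lay in between as deposited (8 after scaling), 20 lay above untreated from a 12 h level below it (18 after scaling), and in 15 the 12 h level was the one in the middle (14 after scaling). Between 30 and 60 kb, where the 3 profiles run close together, 15 of 30 bins lay in between as deposited and 21 after scaling.

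The gain at the start depended on the level of the 12 h library, and that library stood low there. The mean of the first kilobase was 7.47, 6.83 and 5.91 in the libraries of 8, 10 and 12 h, before the 8.14 of the 24 h library. Against the 10 h library the 24 h ratio was 1.19 in the first kilobase (log2 0.25, against 0.46), and against the 8 h library 1.09. Scaling to the own sum counted for more in these pairs, and gave 1.148 against the 10 h library and only 1.01 against the 8 h library. Signal in the kilobase just upstream followed the start, with 4.53, 4.12, 3.49 and 4.99 in the same 4 libraries. The far gain was no smaller without the 12 h library. From 60 to 100 kb the ratio of 24 h was 1.14 against 12 h, 1.19 against 10 h and 1.24 against 8 h, and 1.13, 1.14 and 1.151 after scaling to the own sum. From 1 to 10 kb it was 0.865, 0.875 and 0.883 as deposited and 0.859, 0.841 and 0.819 after scaling, so the order of these references turned with the scale. Of the 7 libraries the one at 12 h was also the deepest, and the part of depth or of the library itself in its low start was not tested.

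Set beside the earlier intervals, the step from 12 to 24 h was the longest in time. In the 1-kb bins from 4 to 120 kb it was also one of 2 steps with a wide range of ratios. Neighbouring steps share a library, and the times between them differ (from 2 to 12 h), so their values are given side by side only. Over the 116 bins of 1 kb the ratio of later to earlier ran from 0.839 to 1.18 for the step to 24 h and from 0.837 to 1.21 for the step from 2 to 5 h. It ran from 0.947 to 1.08 from 5 to 8 h, from 1.004 to 1.07 from 8 to 10 h and from 1.01 to 1.06 from 10 to 12 h. None of the 116 bins passed the fold of 1.1 in any of these 3 middle steps (0% in either direction). From 2 to 5 h, 48 bins were higher by that fold (41.4%) and 5 were lower (4.31%). These ranges and counts are as deposited, and bins of the earlier steps were not counted after scaling to the own sum. Such scaling took the ratio from 2 to 5 h from 1.18 to 1.13 at 30 to 60 kb. At 60 to 100 kb it took that ratio from 1.09 to 1.04, but the ratio from 12 to 24 h only from 1.14 to 1.13.

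Among the 1-kb bins from 4 to 120 kb, the highest ratio was found at different distances in the 2 wide steps. It lay at 39 to 40 kb from 2 to 5 h. In the tail from 100 to 120 kb the log2 ratio of that step was only 0.077 (0.0066 after scaling to the own sum). From 12 to 24 h the highest of these bins was that at 109 to 110 kb. The log2 ratio of this step in the tail was 0.23 (0.22 after scaling). Both steps had their lowest 1-kb ratio at 4 to 5 kb. In the 50-bp bins from -2 to 4 kb the highest ratios of these 2 steps were greater. They were 1.61 (150 to 200 bp) for the step to 24 h and 1.300 (from -1100 bp) for that from 2 to 5 h. The steps between them were also wide near the start. Their 50-bp ratios rose to 1.39 from 5 to 8 h, and fell to 0.822 from 8 to 10 h and 0.803 from 10 to 12 h. From 1 to 10 kb the deposited ratios of the 5 steps in order of time were 0.854, 0.976, 1.01, 1.01 and 0.865. After scaling to the own sum they were 0.814, 0.949, 0.973, 0.979 and 0.859. The steps from 8 to 10 h and from 10 to 12 h thus turned from slight gains to losses. In the first kilobase the deposited ratios were 0.909, 1.153, 0.914, 0.867 and 1.38, and scaling changed no direction. With 1 library per time, whether the steps differ was not tested.

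**Figure D5:**
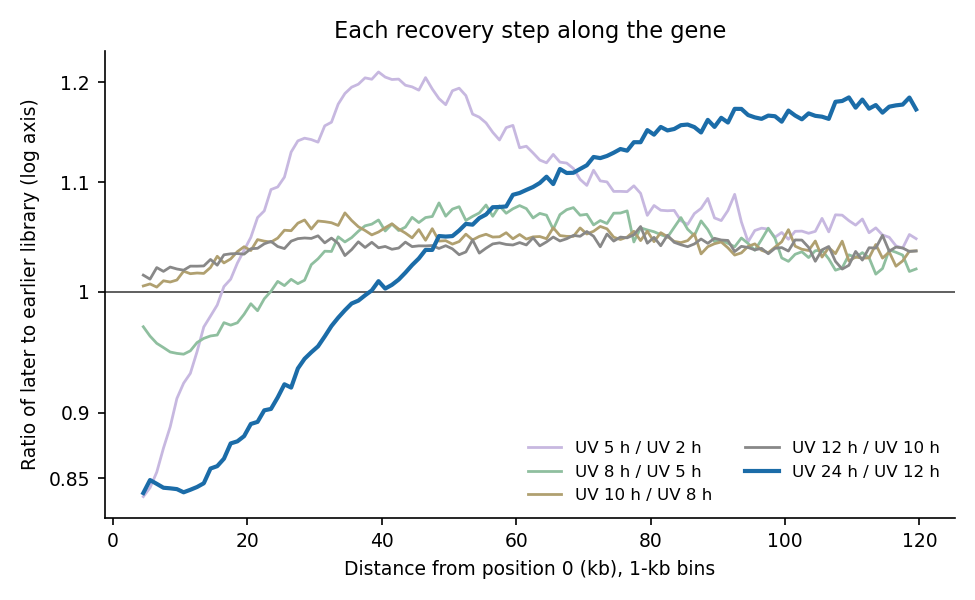
Ratio of each UVC library to the one before it in time, as deposited (vertical log axis). Bins of 1 kb run from 4 to 120 kb (horizontal axis), one line per step. The step from 12 to 24 h rises from 0.839 to 1.18 along the gene, the step from 2 to 5 h peaks at 1.21 near 40 kb, and the steps in between stay between 0.947 and 1.08.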

How the data were processed

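GRO-seq profiles of 7 libraries were used, 1 per condition, grouped by their titles. The authors deposited for each library a signal, the average read coverage per base over genes on a linear scale. Reads were aligned to hg19 with BWA 0.5.9 among the tools, per the submitters' processing notes; the gene list, strand handling and scaling factor are not given in the sources used here.

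All values of each library were whole multiples of 1 step (within 0.001 steps), and neighbouring differences showed reads extended to 250 bases. Reads were taken as summed signal divided by step and extension, and counting intervals (95%) allow for reads that cover several bases. PCR duplicates cannot be recognised, so intervals cover counting error only. Means were taken in windows, in 50-bp bins from -2 to 4 kb and in 1-kb bins from 4 to 120 kb, as deposited without a pseudocount and after division by the sum from 0 to 100 kb. Named bins were the highest and lowest ratio of each range, those at the crossings and each library's highest start bin; other bins were picked after their values were seen, to trace the curve. Alternatives were other scalings, background subtractions, medians, folds, run lengths, bin widths and the 10 h library as reference. The code was tested on simulated data. Python 3.11.15, numpy 2.4.6 and scipy 1.17.1 were used. The libraries compared, windows and rules were chosen with earlier results of these data known.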

Additional observations from a re-analysis of the deposited data

How the results depend on the processing

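Each time had 1 library, and the measure of change was the 95% counting interval, so narrow here that most settings exceed it. No paired analysis was possible because no time had more than 1 library. Log2 ratios of 24 h to 12 h are listed for the windows -2 to 0, 0 to 1, 1 to 10, 10 to 30, 30 to 60, 60 to 100 and 100 to 120 kb. Scaling to the own sum gave 0.35, 0.45, -0.22, -0.18, 0.022, 0.17 and 0.22. Medians gave 0.28, 0.41, -0.24, -0.17, 0.035, 0.20 and 0.24, and the 10 h library as reference 0.17, 0.25, -0.19, -0.13, 0.089, 0.25 and 0.28. Scaling to the farthest upstream kilobase gave, from 0 kb on, 0.36, -0.31, -0.27, -0.069, 0.084 and 0.13. It moves every log2 ratio by -0.10, which by itself turns the value at 30 to 60 kb.

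Subtracting the lowest kilobase gave 0.58, 0.56, -0.61, -0.69, -0.32, -0.083 and 0.011. This kilobase lay at 118 to 119 kb at 12 h (2.00) and at 119 to 120 kb at 24 h (2.36), so the subtraction removes the difference found there. Subtracting the lowest 50-bp bin (1.96 at 12 h, at 118.5 kb, and 1.98 at 24 h, at -2 kb), an alternative chosen after seeing the data, gave 0.87, 0.64, -0.37, -0.36, 0.055, 0.70 and 1.82. The level of true background is thus a limit on the size given for every window, and on the direction from 30 to 100 kb. It also limits the gain from 100 to 120 kb, of which subtracting the lowest kilobase left almost nothing (0.011).

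The near crossing moved to 1.15 kb after subtraction of the lowest kilobase and against the 10 h library. The far crossing moved to 42 kb with the own sum and 30 kb against the 10 h library, and could not be found after the subtraction. Run lengths of 3 and 10 bins and double bin widths left both within their counting ranges. The count of lower 50-bp bins (43) became 67 after subtraction of the lowest kilobase and 1 at a fold of 1.2. Of the 1-kb bins, the 55 higher became 6 and 0, and the 20 lower became 70 and 0, under these same settings.

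Checks of the named bins were added after seeing the data. Subtraction of the lowest kilobase reversed the bins at 59 kb (-0.19), 60 kb (-0.19) and 102 kb (-0.030), and gave no ratio at -2000 bp, where nothing was left. Against the 10 h library the bin at 30 kb reversed, from -0.069 to 0.0016.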

Other observations

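The slope of the last part of the profile also differed between these libraries. The mean signal from 60 to 100 kb was 1.18 times that from 100 to 120 kb in the 12 h library (95% counting interval 1.174 to 1.178) and 1.14 times in the 24 h library (1.137 to 1.141), against 1.13 times in untreated cells. This ratio was lowest at 2 h, at 1.09, and highest at 12 h, so its course over time was not that of the signal itself.

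The kilobase farthest upstream, from -2 to -1 kb, lay above the level of the tail from 100 to 120 kb in all 6 UVC libraries and below it in untreated cells, where the ratio was 0.876. The ratio was 1.16 at 12 h and 1.06 at 24 h. It had been 1.02, 1.25, 1.40 and 1.29 in the libraries of 2, 5, 8 and 10 h.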
